A study of Mus musculus with 4 samples.

Results

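The genes of fibroblast growth factor (FGF) and epidermal growth factor (EGF) signalling, with the feedback genes that this signalling switches on, were taken by gene symbol. The rule covered the FGFs and their receptors, FGF binding proteins, the EGF family ligands and neuregulins, the ErbB receptors, the Sprouty and Spred inhibitors, Errfi1, the ETS factors Etv1, Etv4 and Etv5, and every numbered dual specificity phosphatase (Dusp). It matched 77 of the 26815 entries in the authors' deposited table, each with 1 symbol of its own. Of these 77 genes, 46 had been tested by Cuffdiff and 31 had not.

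Poly(A) RNA came from neural stem cells of the cortex of E14.5 embryos (mouse strain CD-1), purchased and grown as a monolayer on poly-L-ornithine and laminin with EGF and bFGF. All cultures had been transduced with a lentivirus and selected with puromycin at 0.5 µg/mL. In 2 libraries the virus carried a scrambled shRNA (SHC002), and in the other 2 it carried 1 shRNA against the forkhead transcription factor gene Foxp1 (pLKO.1_sh_ex15). The duplicates of each group were cultures of different passages, and with 1 shRNA per group an effect of that hairpin alone cannot be told apart from an effect of lower Foxp1. The table compares conditions that it names q1 and q2, and no label ties a code to an shRNA, so every direction below is that of q2 relative to q1. It was read as a comparison without values per library, so neither levels nor the spread between the duplicates are given, and the depth is unknown. For Foxp1 itself the authors' deposited table gives a log2 fold change of -2.03 (Cuffdiff q = 0.00162). Of 13 neural stem cell markers 12 were tested, among them Sox2, Pax6, Nes and Vim, so transcripts of the labelled cell type were present; Prom1 was not tested.

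FGFs bind receptor tyrosine kinases of the Fgfr family together with heparan sulfate, and EGF family ligands bind the ErbB receptors. Both receptor families pass the signal through adaptors to Ras, Raf, MEK and ERK and through PI3 kinase to Akt, and in cultured neural stem cells EGF and bFGF in the medium keep the cells dividing. ERK signalling induces its own brakes: Sprouty and Spred proteins act on the path from receptor to Ras and Raf, Dusp phosphatases remove phosphate from MAP kinases, Errfi1 blocks the ErbB kinases, and the ETS factors Etv1, Etv4 and Etv5 carry the transcriptional response.

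In all, 5 members passed the authors' threshold, a q under 0.05 over all tested entries, and are referred to as called. The ligand gene Areg and the feedback genes Dusp4, Spry4 and Etv5 were called higher in q2, and the receptor gene Erbb4 was called lower, by the authors' deposited table. These 5 of 46 tested members made up 10.9%, beside 7.63% of all 15315 tested entries. Every member has a single symbol, and adjustment over the 12159 tested entries with a single symbol called 9.56% of them, with the same 5 members. Called higher were 4 of 46, or 8.7%, beside 4.24% of all tested entries, and called lower 1 of 46, or 2.17%, beside 3.39%. At an unadjusted p under 0.05 the members stood at 9 of 46, or 19.6%, against 19.2% of all tested entries. Of these, 6 were higher in q2 (13%, beside 9.46% of all tested entries) and 3 lower (6.52%, beside 9.74%). The shares of members that passed thus lay near those of the table as a whole at the looser threshold, and rested on 5 genes at the stricter one.

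The start regions of the called genes show what lies upstream of their transcripts, and windows for 3 of the 5 were found in the RefSeq promoter table for GRCm38.p6. They are printed 5′ to 3′ on the strand of the gene, from 250 bases before the RefSeq start up to the first base of any transcript of that gene in GENCODE M21. The Areg window is chr5:91139349-91139598 on the plus strand, that of Etv5 is chr16:22439720-22439820 on the minus strand, and that of Erbb4 is chr1:69108060-69108309 on the minus strand. Capitals mark every match to 6 motifs searched on both strands: the forkhead motif TGTTTAC, the ETS core CCGGAA, the AP-1 motif TGANTCA, the cAMP response element TGACGTCA, the TATA box TATAAA and the CArG box of serum response factor.
Areg: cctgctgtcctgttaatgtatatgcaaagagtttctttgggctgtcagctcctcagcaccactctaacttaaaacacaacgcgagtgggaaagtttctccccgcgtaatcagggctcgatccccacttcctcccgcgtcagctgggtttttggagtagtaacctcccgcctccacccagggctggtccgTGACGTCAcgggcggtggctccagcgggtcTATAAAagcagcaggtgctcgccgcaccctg
Etv5: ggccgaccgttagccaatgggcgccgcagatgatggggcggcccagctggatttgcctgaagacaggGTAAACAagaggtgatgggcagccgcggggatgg
Erbb4: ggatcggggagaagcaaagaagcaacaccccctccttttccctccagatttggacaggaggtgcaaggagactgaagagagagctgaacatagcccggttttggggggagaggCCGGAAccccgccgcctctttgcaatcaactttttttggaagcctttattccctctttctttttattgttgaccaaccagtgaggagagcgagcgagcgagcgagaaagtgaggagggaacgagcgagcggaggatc
The Areg window holds a cAMP response element and a TATA box, the Etv5 window holds 1 forkhead motif on the opposite strand, and the Erbb4 window holds 1 ETS core. No 2 of the printed windows share a motif.

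Over the 250 bases before the start, the forkhead motif was found in 3.17% of all 32851 windows in the table and the cAMP response element in 1.55%. The ETS core was found in 12% of all windows and the TATA box in 12.4%. A gene can have several windows, and 56 members had 70 in all; the one printed for each gene is that nearest the start of its locus. Of these 70 windows, 4 held the cAMP response element (5.71%), those of Areg, Dusp1, Dusp8 and Errfi1, of which Areg was called and the others were not. The ETS core stood in 9 of the 70 (12.9%), of which Erbb4 was the called gene, and the forkhead motif in 3 (4.29%), those of Etv5 and the untested Egf and Fgf10. The TATA box stood in 5 (7.14%), below its share of all windows. The AP-1 motif stood in 3 (4.29%, beside 6.75% of all windows) and the CArG box in 1 (1.43%, beside 1.47%). A match describes the letters of the window and does not show that a factor binds there.

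The fold changes of the called members, and of some other genes below, are given with the standard error implied by the deposited statistic. This error is the log2 fold change divided by the statistic. Among the 46 tested members this error ran from 0.31 to 1.85 on the log2 scale, with a median of 0.37, beside a median of 0.38 over all 15197 tested entries with a finite fold change. The authors' p-values are mostly smaller than a normal distribution of the statistic would give, so limits drawn from these errors are mostly wider than the p-values would make them. Of the 41 tested members that were not called, 22 had 95% limits from this error inside a 2-fold change in either direction.

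**Figure D1:**
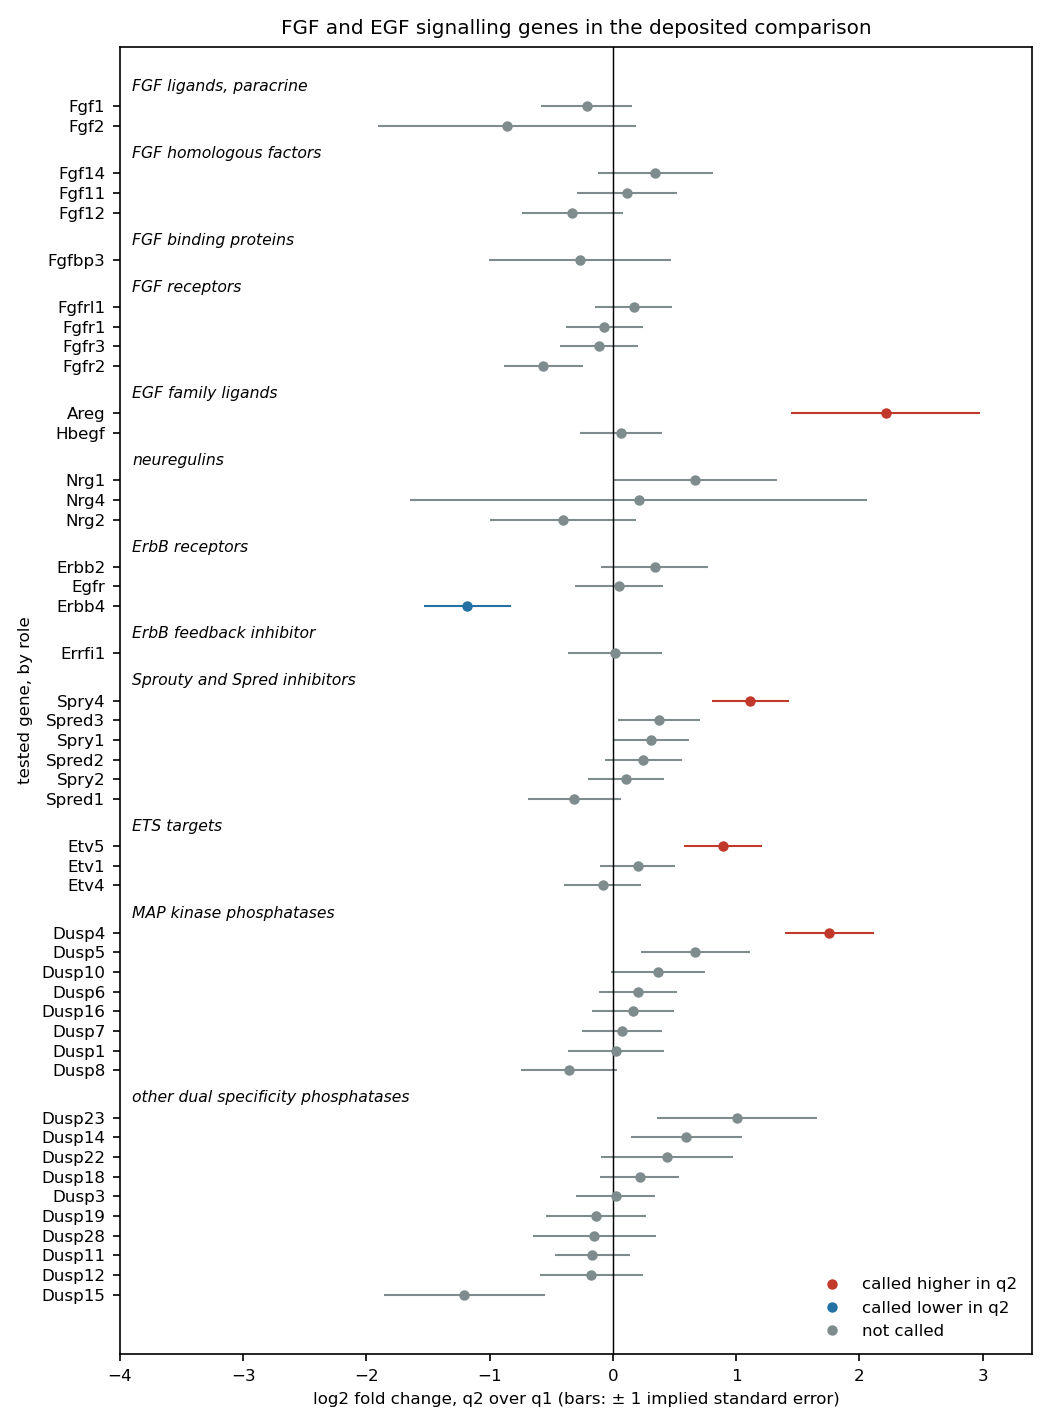
The x axis gives the log2 fold change (q2 over q1) from the authors' deposited table and the y axis the 46 tested genes by role, with bars of 1 implied standard error. Red points are called higher in q2, blue lower and grey not called; Areg and Dusp4 lie farthest to the right at 2.21 and 1.76, and most other points lie within 0.5 of zero.

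Among the EGF family ligands, Areg, which encodes amphiregulin, a ligand of the EGF receptor, was the tested member with the largest fold change (GRCm38 chromosome 5, 91139615 to 91148432). In the authors' deposited table it was 4.63-fold higher in q2, a log2 fold change of 2.21 with an implied standard error of 0.77 (Cuffdiff q = 0.0232). Of all tested entries, 2.59% had an absolute fold change at least as large, a share that counts the 118 tested entries listed at 0 in a condition. The deposited statistic for Areg was 2.89, and with p taken from a normal distribution the call ended (Benjamini-Hochberg q = 0.105).

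Further EGF family ligand genes lie beside Areg on chromosome 5, and none of them was tested. Ereg, encoding epiregulin, ends 46 kb before Areg and was listed at 0 in q1 and above 0 in q2 in the authors' deposited table. Epgn, a neighbour that the rule does not cover, and Btc, which encodes betacellulin, had untested log2 fold changes of 0.43 and 0.45 in the authors' deposited table. Of the 4 ligand genes of the cluster Areg was thus the only one with a test, and no direction is read from the untested values. Gm19619, an entry between Areg and Btc, was at -2.20 in the authors' deposited table and also untested. Elsewhere in the genome, Hbegf, which encodes a heparin-binding ligand of the EGF receptor, stood at 0.06 with an implied standard error of 0.33 (the authors' deposited table, with Cuffdiff q = 0.93), with limits of -0.59 to 0.72. Egf, the gene of the factor supplied in the medium, was not tested and had a log2 fold change of 0.50 in the authors' deposited table.

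Of the 3 tested ErbB receptor genes, 1 was called. Erbb4, a receptor for neuregulins and for several EGF family ligands, was 2.27-fold lower in q2 according to the authors' deposited table (chromosome 1, 68039966 to 69108059; log2 fold change -1.18, implied standard error 0.35, Cuffdiff q = 0.00162). Egfr, the receptor for EGF, was at 0.05 with an implied standard error of 0.36 (the authors' deposited table, with Cuffdiff q = 0.946), with limits of -0.65 to 0.75. Erbb2, the co-receptor that binds no ligand itself, was at 0.34 (the authors' deposited table, with Cuffdiff q = 0.607). Its locus overlaps that of Mien1, so reads could have been assigned to either. Erbb3 had an untested log2 fold change of 0.94 in the authors' deposited table. The difference between Erbb4 and the other receptors was not tested. Errfi1, the feedback inhibitor of the ErbB kinases, was at 0.01 with an implied standard error of 0.38 (the authors' deposited table, with Cuffdiff q = 0.984).

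The neuregulins, ligands of Erbb3 and Erbb4, had wide errors. Nrg1 was at 0.66, Nrg2 at -0.40 and Nrg4 at 0.21 in the authors' deposited table, with implied standard errors of 0.66, 0.59 and 1.85, and none was called. The error of Nrg4 was the widest of all tested members, and its locus overlaps that of Fbxo22. Nrg3 was not tested and was listed at 0 in q1 in the authors' deposited table.

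Of the 22 FGF genes, 5 were tested and none was called. The paracrine ligands Fgf1 and Fgf2 were at -0.21 and -0.86 (the authors' deposited table, with Cuffdiff q = 0.724 and 0.587). Fgf2, which encodes the same factor that was supplied as bFGF, had an implied standard error of 1.05, so its limits ran from -2.91 to 1.19 and hold a 2-fold change in either direction. The locus of Fgf2 in the table (chromosome 3, 37348653 to 37404830) ends just before Nudt6 on the opposite strand, while the longer gene model of GENCODE M21 (37348346 to 37410108) overlaps Nudt6 (37404910 to 37420211). The FGF homologous factors, which stay inside the cell and bind sodium channels rather than FGF receptors, stood at 0.12 for Fgf11, -0.33 for Fgf12 and 0.34 for Fgf14 in the authors' deposited table, none called.

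The remaining 17 FGF genes were not tested. Among them Fgf7, Fgf16 and the endocrine Fgf23 were listed at 0 in q2 and above 0 in q1, in the authors' deposited table. A further 7 of the untested FGF genes, Fgf4, Fgf6, Fgf10, Fgf15, Fgf17, Fgf20 and Fgf21, carried a log2 fold change of exactly 0 in the authors' deposited table. Finite but untested values were deposited for Fgf3, Fgf5, Fgf8, Fgf9, Fgf13, Fgf18 and Fgf22, from -1.44 for Fgf18 to 1.36 for Fgf8. The Fgf22 locus spans chromosome 10 from 79697305 to 80369637 and overlaps 52 other entries, while the GENCODE M21 gene runs only from 79755076 to 79758596. Fgfbp3, encoding a carrier that releases FGFs from the matrix, was at -0.27 with an implied standard error of 0.74 in the authors' deposited table, and Fgfbp1 was not tested.

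Of the 5 FGF receptor genes 4 were tested, and none was called. Fgfr1 was at -0.07 and Fgfr3 at -0.11 in the authors' deposited table, with implied standard errors of 0.31 and 0.32 (Cuffdiff q = 0.916 and 0.85). Fgfrl1, a receptor without a kinase domain, was at 0.17 in the authors' deposited table. For Fgfr1 the limits of -0.68 to 0.54 lie inside a 2-fold change in either direction. Fgfr2 had the lowest value of the 4, at -0.56 with an implied standard error of 0.32 in the authors' deposited table, and did not pass (Cuffdiff p = 0.0122, q = 0.11). Fgfr4 was not tested and was listed at 0 in q1. Of the 7 tested receptor genes of both families, Fgfr2 and Erbb4 were lower in q2 at an unadjusted p under 0.05, beside 9.74% of all tested entries. Only Erbb4 was called.

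Among the intracellular inhibitors, Spry4, a Sprouty protein that restrains Ras and ERK activation, was 2.17-fold higher in q2 according to the authors' deposited table (chromosome 18, 38586265 to 38601268; log2 fold change 1.12, implied standard error 0.31, Cuffdiff q = 0.00162). Its paralogues Spry1 and Spry2 were at 0.31 and 0.10 with the same error of 0.31 in the authors' deposited table, and neither was called (Cuffdiff q = 0.46 and 0.865). The limits of Spry4, 0.51 to 1.72, overlap those of Spry1, -0.29 to 0.92, and those of Spry2, -0.50 to 0.71. The differences between Spry4 and its paralogues were not tested, and an overlap of limits does not decide them. The Spred genes, whose products hold Raf inactive, ran from -0.32 for Spred1 through 0.25 for Spred2 to 0.37 for Spred3 in the authors' deposited table, none called. Spry3 was not tested.

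Of the 3 ETS factor genes, all tested, 1 was called. Etv5 was 1.86-fold higher in q2 according to the authors' deposited table (chromosome 16, 22381313 to 22439570; log2 fold change 0.89, implied standard error 0.32, Cuffdiff q = 0.00162). With p from a normal distribution its call ended (Benjamini-Hochberg q = 0.126). Etv1 was at 0.20 and Etv4 at -0.08 in the authors' deposited table, with implied standard errors of 0.31 (Cuffdiff q = 0.675 and 0.897). The limits of Etv5, 0.27 to 1.52, overlap those of Etv1, -0.40 to 0.80, and those of Etv4, -0.69 to 0.52. The differences of Etv5 from Etv1 and from Etv4 were not tested.

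A gene on each side of Etv5 was called in the same direction. Dgkg, encoding a diacylglycerol kinase and sharing its locus with the untested Mir8095, starts 27 kb beyond Etv5 and was at 2.30 in the authors' deposited table, and Igf2bp2, encoding an RNA-binding protein, lies 218 kb on the other side and was at 1.46 (Cuffdiff q = 0.00162 for both). Tra2b, which lies between Igf2bp2 and Etv5, was at 0.17 in the same table and was not called (Cuffdiff q = 0.742). These neighbours were chosen by distance after the values of Etv5 were known. Among the nearest neighbours of Dusp4, Spry4 and Erbb4, those tested were not called: Tnks, 6.95 kb from Dusp4, was at -0.15, Ndfip1 and Fgf1 on either side of Spry4 were at -0.63 and -0.21, and Ikzf2 beside Erbb4 was at -0.24 in the authors' deposited table.

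The MAP kinase phosphatase Dusp4, a nuclear enzyme that inactivates ERK and related kinases, was 3.38-fold higher in q2 according to the authors' deposited table (chromosome 8, 34807610 to 34819894; log2 fold change 1.76, implied standard error 0.36, Cuffdiff q = 0.00162). Its statistic of 4.84 was the largest among the members, and its limits of 1.04 to 2.47 lie above a 2-fold change. Dusp5, a nuclear phosphatase specific for ERK, was at 0.67 in the authors' deposited table and did not pass (Cuffdiff p = 0.0348, q = 0.209). Dusp6, the cytoplasmic ERK phosphatase that is a common readout of FGF signalling, was at 0.20 with an implied standard error of 0.32 (the authors' deposited table, with Cuffdiff q = 0.686), and its limits of -0.42 to 0.83 lie below those of Dusp4. The difference between Dusp4 and Dusp6 was not tested. Dusp1, an immediate early phosphatase, was at 0.02 and Dusp7, also cytoplasmic, at 0.07 in the authors' deposited table. The phosphatases that act mainly on JNK and p38 were at 0.37 for Dusp10, 0.16 for Dusp16 and -0.35 for Dusp8 in the authors' deposited table, none called. Of these 8 tested MAP kinase phosphatases 1 was called, beside 7.63% of all tested entries. A positive value was held by 7 of the 8, beside 45.7% of all tested entries with a finite fold change. With the GC trend removed, Dusp1 and Dusp7 were at -0.043 and -0.16. Dusp2 and Dusp9 were not tested, with log2 fold changes of 1.40 and 0.96 in the authors' deposited table.

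The 14 other dual specificity phosphatases in the table, many of which have substrates other than MAP kinases, included 10 tested genes and no call. Dusp23 had the highest value, 1.01 with an implied standard error of 0.65 (Cuffdiff p = 0.0365, q = 0.215), and Dusp15 the lowest, -1.21 with the same error (Cuffdiff p = 0.0125, q = 0.112), in the authors' deposited table. Dusp14 was at 0.59 and Dusp22 at 0.44, and the other 6 lay between -0.17 and 0.22, in the authors' deposited table. Untested were Dusp13, listed at 0 in q2, Dusp27, listed at 0 in q1, Dusp21, with a fold change of exactly 0, and Dusp26.

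Over all 46 tested members the median log2 fold change was 0.09, beside -0.05 over all tested entries with a finite value, and 29 of 46 were positive (63%, beside 45.7%). The median absolute log2 fold change was 0.26 in the members and 0.32 over all entries, and 34 of 46 members lay within 0.5 of zero (73.9%, beside 68.2%). Members that were not called had a median of 0.06.

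**Figure D2:**
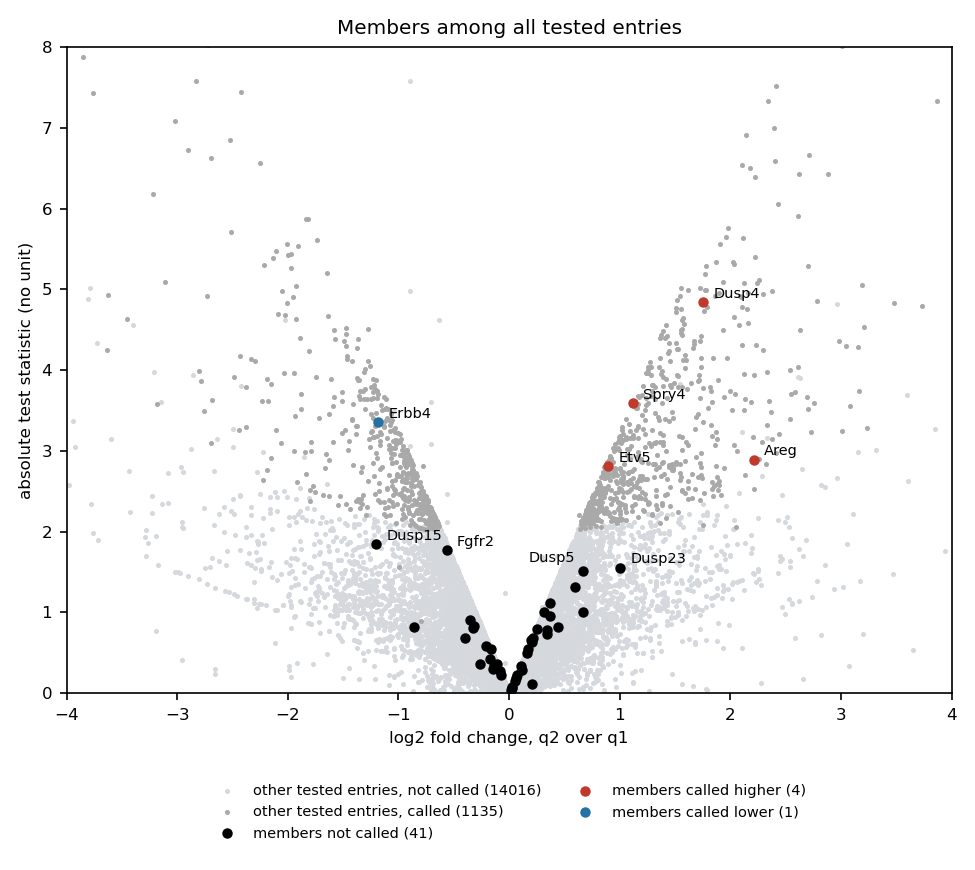
The x axis gives the log2 fold change (q2 over q1) and the y axis the size of the test statistic, both from the authors' deposited table, for the 46 members (black, red and blue) and the other tested entries with a finite fold change (grey); 51 entries lie outside the plotted range. The 5 called members stand among the called entries, with Dusp4 highest at 4.84 and Etv5 lowest at 2.81. The labelled Fgfr2, Dusp5, Dusp15 and Dusp23 lie below them and were not called.

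A trend with transcript GC content ran through the whole table: the median log2 fold change was -0.31 in the 1157 genes with the lowest GC content and 0.30 in the 1157 with the highest. All 46 tested members had a GC value. After subtracting the median of each gene's GC bin, 1 of 50, the 5 calls held, with Areg at 2.30, Dusp4 at 1.55, Spry4 at 1.17, Etv5 at 0.84 and Erbb4 at -1.01. Dusp15 went to -1.38 and was then called lower (q = 0.0467), which made 6 of 46 members called beside 7.59% of 11562 genes. This setting also read p anew from the statistic. Doing so with no trend removed called the same 5 members and 10.3% of the 11562 genes. It gave Benjamini-Hochberg q = 0.00235 for Areg and 0.0795 for Dusp15, beside Cuffdiff q = 0.0232 and 0.112. Etv4, whose transcripts are among the richest in GC of all members, stood at -0.41 after this, beside -0.08 in the authors' deposited table, and Spred1, among the poorest, at -0.0021 beside -0.32. The median of the members became 0.12. The cause of the trend was not tested.

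**Figure D3:**
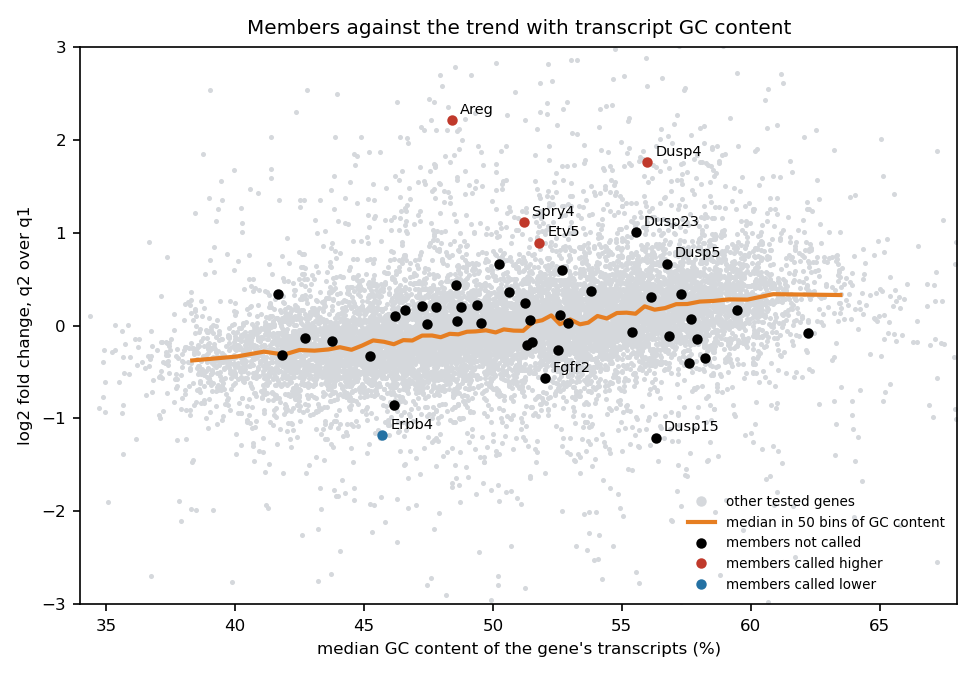
The y axis gives the log2 fold change (q2 over q1) from the authors' deposited table and the x axis the median GC content of a gene's transcripts in percent, for tested genes in grey, members in black or, where called, red and blue, and the median in 50 bins as a line; 69 genes lie outside the plotted range. The line climbs from -0.38 in the bin with the lowest GC content to 0.33 in the highest, and Areg, Dusp4, Spry4, Etv5 and Erbb4 lie well away from it.

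The 7 lists of other genes of the pathway held 105 genes in the table, none of them a member, and 96 were tested. Of these 13 were called, 11 higher and 2 lower in q2 by the authors' deposited table, which is 13.5% beside 7.63% of all tested entries. Adjusted over the 12159 tested entries with a single symbol, 13 were again called, beside 9.56%. The lists were drawn up with earlier results of these data known, so these shares are not independent evidence. With the GC trend removed 8 were called, beside 7.59%. With p read from the statistic in the same way and no trend removed, 14 were called, beside 10.3%. Over the 96 tested genes the median log2 fold change was 0.07 as deposited.

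The list of growth factor induced transcripts, which also holds the ETS factor genes Elk1, Elk3, Elk4 and Etv6, held 6 of these 13 calls. Of 19 tested, 6 were called higher, beside 4.24% of all tested entries, and none lower. Positive were 17 of 19, beside 45.7% of all tested entries with a finite fold change, at a median of 0.54 in the authors' deposited table. Egr1, Fos and Jun were at 0.21, 0.22 and 0.35 and were not called (the authors' deposited table, with Cuffdiff q = 0.67, 0.726 and 0.397). Ier3, a stress and ERK response gene, was at 3.24 with an implied standard error of 0.98 (the authors' deposited table, with Cuffdiff q = 0.0332). The zinc finger factors Egr2 and Egr3 were at 1.29 and 1.08, and Srf, which binds the CArG box, at 0.87 (the authors' deposited table, with Cuffdiff q = 0.00162, 0.00918 and 0.00292). Egr2, Egr3 and Ier3 were the 3 called once the GC trend was removed, and the median of the list was then 0.49. Srf, Myc and Fosl2 were then at 0.59, 0.59 and 0.93 (q = 0.104, 0.0857 and 0.0509), beside 0.87, 0.72 and 1.00 in the authors' deposited table. The list was drawn up with results of this table known and is not independent evidence.

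The counts by list that follow stand beside 7.63% of all tested entries called and 19.2% with an unadjusted p under 0.05. Such a p was held by 4 of 15 adaptors and Ras activators and 5 of 15 genes of the kinase cascade. It was also held by 3 of 12 PI3 kinase, Akt and PLC gamma genes and 3 of 9 of ligand release and co-receptors. Among adaptors and Ras activators, 3 of 15 were called higher and 1 lower. The docking protein genes Irs2 and Irs1 were at 1.15 and 0.75, the adaptor gene Shc1 at 0.99 and the Ras exchange factor gene Sos2 at -0.80 (the authors' deposited table, with Cuffdiff q = 0.00162, 0.0195, 0.00162 and 0.0118). With the GC trend removed Sos2 was at -0.54 and not called (q = 0.153). In the kinase cascade 1 of 15 was called, Mapk3, which encodes ERK1, at 0.87 (the authors' deposited table, with Cuffdiff q = 0.0063). The Ras and Ras GTPase activating protein genes had no Cuffdiff call among 12 tested, and 2 had an unadjusted p under 0.05. Of 12 PI3 kinase, Akt and PLC gamma genes 1 was called lower, the regulatory subunit gene Pik3r3 at -0.66 (the authors' deposited table, with Cuffdiff q = 0.0453). With the GC trend removed Pik3r3 was at -0.55 and not called (q = 0.117). Receptor turnover and other inhibitor genes had no Cuffdiff call among 14 tested, and 0 had an unadjusted p under 0.05. Among 9 genes of ligand release and co-receptors, 1 was called higher, Adam19, a membrane protease that can cleave neuregulins, at 1.00 (the authors' deposited table, with Cuffdiff q = 0.00162). Adam17, the main sheddase of amphiregulin, was at -0.13 (the authors' deposited table, with Cuffdiff q = 0.847).

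**Figure D4:**
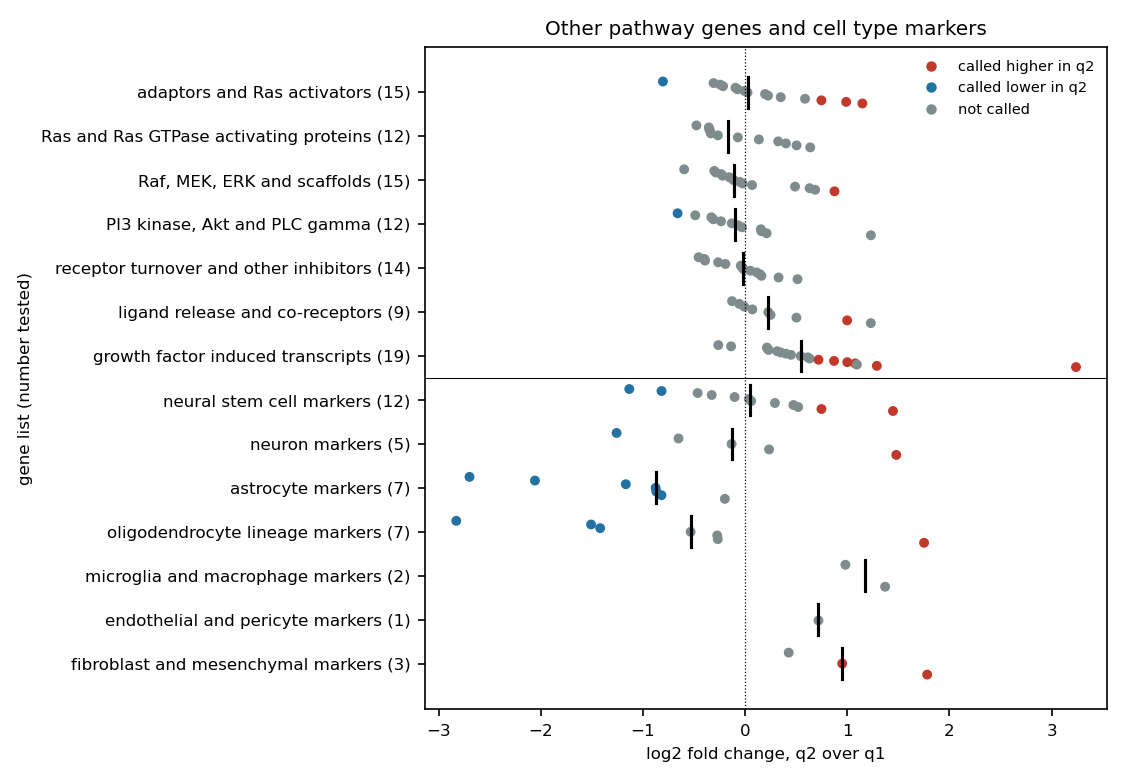
The x axis gives the log2 fold change (q2 over q1) from the authors' deposited table, for the tested genes of 7 pathway lists (above the line) and 7 lists of cell type markers (below it), with the number tested in parentheses. Each point is a gene, coloured red where called higher, blue where called lower and otherwise grey, with medians as black bars, 0.54 for growth factor induced transcripts and -0.88 for astrocyte markers.

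Markers of other cell types moved in the same comparison, in which 4.24% of all tested entries were called higher and 3.39% lower. Of 7 astrocyte markers, all tested, 6 were called lower in q2, over a range of -2.70 to -0.20 in the authors' deposited table. Of 7 tested oligodendrocyte lineage markers 3 were called lower and 1 higher, over -2.83 to 1.75, and among 5 tested neuron markers 1 was called each way, over -1.26 to 1.48, in the authors' deposited table. Neural stem cell markers had 2 called higher and 2 lower of 12, over -1.13 to 1.45 in the authors' deposited table. Of 8 fibroblast and mesenchymal markers 3 were tested, at 0.43 to 1.78 in the authors' deposited table, and 2 of them, Acta2 and Fn1, were called higher. Col1a1 was not called, and Col1a2, Col3a1, Dcn, Lum and Pdgfrb were not tested. Just 2 of 7 microglia and macrophage markers, at 0.98 and 1.37, and 1 of 7 endothelial and pericyte markers, at 0.71, were tested, and 0 called, in the authors' deposited table. For Areg, Dusp4, Spry4, Etv5 and Erbb4, as for any gene measured in bulk RNA, fewer cells of a type and less RNA per cell cannot be told apart, and the part these cell types have in the values above was not tested.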

How the data were processed

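Poly(A) RNA was sequenced in 4 libraries, grouped here by their titles, after library preparation with a SOLiD Total RNA-Seq kit per the labels' protocols. The submitters' processing notes name Cuffdiff, Cufflinks 2.2.1, TopHat2 2.0.9 and build mm10 (GRCm38). Not given in the sources used here are the Cuffdiff version, annotation, filters and strand setting.

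Per the file headers, the authors deposited log2 fold changes of q2 over q1, a test statistic (a score), p-values and q-values, with untested entries marked. The deposited p-values stop at 5e-05, so the smallest q, 0.00162, ranks no genes. What spread they measure, cultures or technical, is not known. The 2 columns of values per condition match no label and were not used. Locus starts were converted to count from 1.

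From these, implied errors (fold change over statistic), 95% limits and counts were computed. Trends used GENCODE M21 transcripts by symbol (median GC content, longest transcript), for 95.6% of 12159 tested genes with a single symbol; p was then interpolated from how the deposited p depends on the statistic, and the script was tested on simulated data. Promoter windows (70) matched 56 of 77 members. Values are given for Foxp1, members called or at an unadjusted p under 0.05, tested receptors, ligands, Sprouty, Spred, Etv and MAP kinase phosphatase genes, members without a finite fold change or with the widest errors, and up to 4 called genes of each pathway list by statistic. Other genes named (the remaining Dusp genes, untested members, Adam17, Egr1, Fos, Jun, Myc, Fosl2, fibroblast and mesenchymal markers, neighbours) were chosen after their values were seen. The members and lists were chosen with earlier results of these data known. Python 3.11.15, numpy 2.4.6, pandas 2.3.3, scipy 1.17.1 and matplotlib 3.10.9 were used. Alternatives were other q thresholds, a minimum fold change, normal p-values, adjustment over single symbols, centring, and subtraction of a GC or a length trend; reading p from the statistic alone and entries with a locus of their own were added after seeing the data.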

Additional observations from a re-analysis of the deposited data

How the results depend on the processing

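The direction of each of the 5 called members held with centring and with the GC or the length trend removed. The other alternatives left the fold changes as deposited, so they could not change a direction. With p from a normal distribution, 3 members were called, 2 higher, with Dusp4, Spry4 and Erbb4 kept and Areg and Etv5 lost, and 3 of the other pathway genes, beside 425 of 15197 entries in all. A q under 0.01 left 4 members (without Areg), 7 pathway genes and 667 entries, and a log2 fold change of at least 1 left 4 members (without Etv5), 4 pathway genes and 687 entries. With the GC trend removed, 2 members were called lower in place of 1, as Dusp15 was added, and 8 pathway genes in place of 13. Reading p from the statistic with no trend removed called 14 pathway genes. The median of the tested members, 0.09 as deposited, was 0.14 after centring and 0.13 with the length trend removed. Members that changed sign were not called in either form: Fgfrl1 went to -0.11, Dusp1 to -0.043, Dusp7 to -0.16, Dusp11 to 0.091 and Dusp19 to 0.13 with the GC trend removed, and Fgfr1 to 0.024 with the length trend removed. The cause was not tested. Adjustment over single symbols, p read from the statistic, and entries with a locus of their own (38 tested members) left the same 5 members called. No paired analysis was possible because the deposited comparison holds no value per library, and for the same reason no replicate could be left out. Depth is unknown, so what it limits could not be assessed beyond the implied errors.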
